A study of Mus musculus with 12 samples.

Results

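Hearts taken 1 week after induction of RNA with expanded CUG repeats were compared with hearts of untreated MCM mice across all named genes. The comparison holds 6 of the 12 mouse heart samples of the series, 3 in each group, assigned by sample title. Each sample was on 1 Illumina bead array. The 2 hearts of wildtype adult mice served as a second control. The induced animals carried the EpA960 and MCM transgenes, an inducible and heart-specific model of myotonic dystrophy type 1 (DM1), and were 2 to 4 months old when tamoxifen was injected into the peritoneum at 20 mg/kg. The injection was given either once or on several consecutive days, and the labels do not tie either schedule to the 1 week hearts. MCM is a recombinase transgene that tamoxifen activates in heart muscle cells. The MCM hearts are labelled untreated, so tamoxifen, the activated recombinase and the expanded repeat cannot be told apart as sources of a difference. These 3 groups carry the strain label FVB and are labelled adult. The other 4 hearts of the series, 3 taken 72 h after induction and 1 from a wildtype embryo at day 14, entered the normalization and the fit. The labels give neither the age of the control mice nor the sex of any animal. Titles number the samples within a group without further detail on separate animals, so p-values measure the spread between these arrays, which may in part be technical.

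DM1 is caused by a CTG repeat expansion in the untranslated end of DMPK. The repeat RNA is retained in nuclei, binds splicing regulators of the muscleblind family and is accompanied by altered CELF protein activity. In patients the heart is affected mainly through slowed conduction, arrhythmia and, less often, failure of the muscle.

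All 11 tested markers of heart muscle cells were detected on all 8 arrays. The 3 arrays at 1 week correlated with each other across genes at 0.993 to 0.994 and with control arrays at 0.916 to 0.929, while MCM arrays correlated with adult wildtype arrays at 0.974 to 0.978. Between 14401 and 15598 probes were detected on each of these 8 arrays. The background signal, read as the 1st percentile of probes, was 56.0 to 59.1 at 1 week against 63.0 to 67.6 in MCM and 67.5 and 72.3 in adult wildtype. Only the 3 arrays at 1 week carry an unexplained letter R in their descriptions, so a difference in array handling and the difference between induced and control hearts cannot be told apart. The MCM hearts were not alike. Xist, expressed from a silenced X chromosome in female cells, was at 10.82, 11.39 and 5.07 (log2 signal) on MCM replicates 1, 2 and 3 and at 4.94 to 4.98 at 1 week. It was not called (adjusted p = 0.0618) unless MCM replicate 3 was left out. MCM replicate 1 carried both Xist and the Y-linked Eif2s3y, the latter at 9.80 next to 10.37 to 10.75 at 1 week. Whether that array holds RNA of 1 animal cannot be told from the labels. MCM replicate 2 had neither Eif2s3y, at 5.04, nor the Y-linked Kdm5d, at 5.03. Adult wildtype had Xist at 5.01 and 4.98, Eif2s3y at 5.72 and 5.55, and Kdm5d at 7.75 and 7.65. MCM replicate 3 was low in atrial genes, with Myl7, the atrial myosin light chain, at 9.08 against 13.53 and 14.23 on replicates 1 and 2. The part of sex, tissue sampling and array background in the results below was not tested beyond the values given.

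Expression differed in a large share of the genes tested, which include 821 detected on no 1 week or MCM array. A gene was called when its adjusted p in a limma fit over all arrays, with Benjamini-Hochberg adjustment over 10169 genes, was below 0.05, and all adjusted p values below are from that fit. Against MCM, 2767 genes (27.2%) were higher and 2709 (26.6%) lower. Against adult wildtype, 2487 (24.5%) were higher and 2479 (24.4%) lower. Against both, 2031 (20.0%) were higher and 1982 (19.5%) lower, which makes 4013 genes or 39.5%. The 2 control groups differed from each other in 582 genes (5.72%), with 2.62% higher and 3.11% lower in adult wildtype. The median log2 change over all genes was 0.00 against either control. At 1 week all 3 signals lay above all 5 control signals for 2823 genes (27.8%) and below all 5 for 2659 (26.1%). By estimated change, at least 4-fold differences from both controls were more often rises, 146 against 28 falls, while at least 1.5-fold differences were 1458 rises and 1210 falls. Both counts include genes not detected in 1 of the groups, and a gene could pass the filter through the 1 week arrays alone. With only probes detected on all 12 arrays, 1404 genes were higher and 1650 lower against both controls. With 53.8% of genes called against MCM, the counts of each gene group below are read against these shares. Where several kept probes of a called gene were available, all had the same sign for 1289 of 1590 genes (81.1%).

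The 12 largest rises were taken among genes called higher against both controls and detected on all 1 week and MCM arrays. Their 3 values at 1 week also had to lie above all 5 control values. They ranged from Timp1 to Cdkn1a, with log2 changes of 6.14 to 3.26 against MCM. Values are normalized log2 signals. Timp1, which inhibits matrix metalloproteinases, had 14.05, 14.14 and 13.74 at 1 week, 7.44 to 8.06 in MCM and 8.98 and 8.89 in adult wildtype. Its log2 change against MCM was 6.14 ± 0.97 (standard error, adjusted p = 0.000282), and a further probe gave 6.21. The standard error is pooled over all 5 groups of the series and is wider than the spread of these 8 arrays. Atrip, whose product partners the DNA damage kinase ATR, had 13.14, 13.08 and 13.25 against 7.81, 7.91 and 7.47 in MCM and 8.24 and 8.03 in adult wildtype (log2 change 5.42 ± 0.12, adjusted p = 6.38e-11). Atrip rests on 1 kept probe, at 10.66 to 10.82 on the 72 h arrays, and whether it reads the gene was not tested. Serpina3n, a secreted protease inhibitor of acute inflammation, had 14.42, 14.42 and 14.14 against 9.72, 9.72 and 9.77 in MCM and 10.83 and 10.66 in adult wildtype (4.59 ± 0.54, adjusted p = 4.29e-05). For none of these genes did the groups come within 3 log2 units of each other. Lcn2, an iron-siderophore binding protein released in inflammation, changed by 4.48 ± 0.61, with 11.82 to 12.08 at 1 week and 6.95 to 7.99 in MCM. Mthfd2, a mitochondrial enzyme of one-carbon metabolism, had 11.75, 11.61 and 11.72 against 7.52, 7.48 and 7.16 in MCM and 7.75 and 7.74 in adult wildtype (4.30 ± 0.37, adjusted p = 5.02e-06). Arrdc4, an arrestin-related protein, had 12.40, 12.56 and 12.52 against 9.11, 8.98 and 8.98 in MCM (3.47 ± 0.11, adjusted p = 1.18e-09), and Uchl1, a deubiquitinating enzyme of neurons, changed by 3.43 ± 0.23 (adjusted p = 1.01e-06). Gpnmb, a glycoprotein of activated macrophages, had 7.86, 8.11 and 7.13 in MCM and was dark in adult wildtype at 5.97 and 5.58, against 10.90 to 11.22 at 1 week, and its other probe changed by 1.59 where the printed one changed by 3.36.

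**Figure D1:**
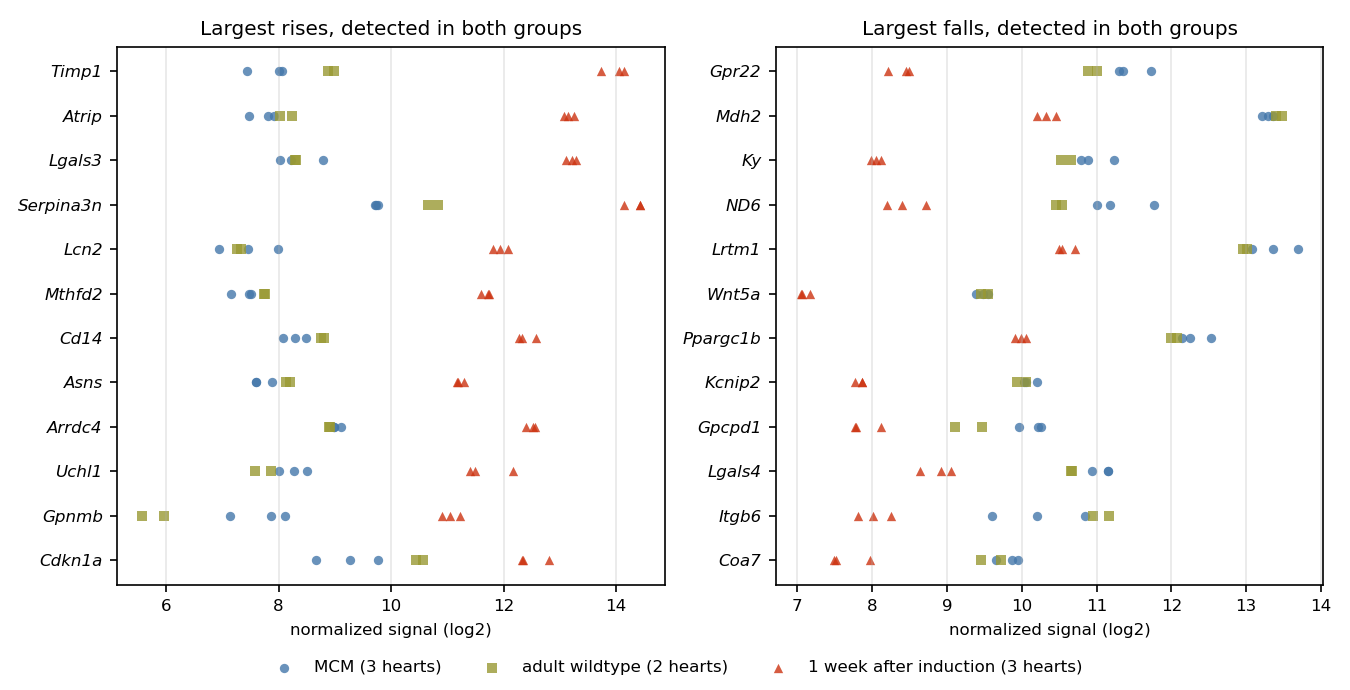
Normalized log2 signal of the 12 largest rises (left) and 12 largest falls (right), 1 point per array. MCM is shown as circles, adult wildtype as squares and 1 week as triangles. Genes were called against both controls and detected on all 1 week and MCM arrays. They were also chosen so that the 3 triangles lie apart from all 5 control points. Log2 changes run from 6.14 (Timp1) to 3.26 (Cdkn1a) and from -3.07 (Gpr22) to -2.16 (Coa7).

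The 12 largest falls were chosen under the same conditions, with all 1 week values below all 5 control values. They ranged from Gpr22 to Coa7, with log2 changes of -3.07 to -2.16 against MCM. Genes not lower than both controls, such as Lrrc2 at -2.47 against MCM, were left out. Gpr22, an orphan receptor of heart muscle, had 8.50, 8.46 and 8.22 at 1 week, 11.29, 11.36 and 11.73 in MCM and a mean of 10.95 in adult wildtype (log2 change -3.07 ± 0.25, adjusted p = 3.32e-06). Mdh2, the malate dehydrogenase of mitochondria, had 10.32, 10.45 and 10.20 against 13.35, 13.29 and 13.22 in MCM and 13.40 and 13.48 in adult wildtype (-2.96 ± 0.17, adjusted p = 2.90e-07). Kcnip2, a subunit of the channel that carries the transient outward potassium current, had 7.87, 7.77 and 7.87 against 10.05, 10.03 and 10.21 in MCM and 9.94 and 10.05 in adult wildtype (-2.26 ± 0.39, adjusted p = 0.000497). That no 1 week array reached a control array for any of the 3 follows from the rule of choice. Ky, a muscle protein needed for growth of postural muscle, and Lrtm1 each had a second probe that moved alike, at -2.87 beside -2.92 and at -2.90 beside -2.80. ND6, a complex I subunit encoded by mitochondrial DNA, changed by -2.88 ± 0.19 (adjusted p = 8.90e-07), and Coa7, a factor for assembly of cytochrome c oxidase, by -2.16 ± 0.19 (adjusted p = 5.36e-06). Gpcpd1, an enzyme of phosphocholine metabolism, fell by 2.25 against MCM and by 1.39 against adult wildtype, whose arrays at 9.10 and 9.47 lay between the others. Wnt5a, a signal of the non-canonical Wnt pathway, fell by 2.38 by its brightest probe and by 0.93 and 0.59 by its other probes. Itgb6, the beta 6 integrin, fell by 2.19, with probes from -2.61 to -1.88, and its MCM values of 10.21, 9.60 and 10.84 were spread more widely than its 1 week values of 7.81 to 8.25. Lgals4, a galectin, fell by 2.21, and its other probe by 2.24.

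Other genes crossed the limit of detection. Of the 10169 genes tested, 278 called against both controls were detected on all 3 arrays at 1 week and on no control array by any probe. In the other direction, 83 were detected on all 5 control arrays and at 1 week by no probe. The lowest detected signal was 6.66 to 6.74 at 1 week and 6.77 to 6.95 on control arrays, and its part in these counts was not tested. Against a dark group only a lower bound of the fold exists. Cacna2d3, an auxiliary subunit of calcium channels, had 13.26, 13.25 and 13.47 against 5.37 to 5.38 in MCM, at least 88.7-fold higher. Sspn, which encodes sarcospan of the dystrophin complex, had 12.40, 12.32 and 12.08 against 5.03 to 5.11 in MCM, at least 42.5-fold higher (adjusted p = 6.38e-11). Mmp3, a matrix-degrading protease, had 11.40, 11.56 and 11.40 against 5.57 to 6.38 in MCM, at least 24.3-fold higher (adjusted p = 1.63e-05), and both of its other probes rose. Such genes split by their level at 72 h, measured in 3 further hearts of the same model. Cacna2d3 was already at 10.34 to 10.74 there, Ulk4, a kinase-like gene, at 8.70 to 9.17, Pcdhb12, a cell adhesion molecule, at 8.56 to 9.43 and Zfp36l2, which encodes an mRNA decay factor, at 8.74 to 8.81. Chil4, a chitinase-like protein of activated macrophages, was uneven at 72 h, with 5.56, 8.77 and 6.46, and at 11.35 to 11.74 at 1 week. Sspn and Crct1 were below detection there, at 4.93 to 5.52 and 4.94 to 5.50. Apart from Mmp3, each appearing gene named here rests on 1 kept probe, and whether that probe reads the named gene was not tested. In all, 12 of the 278 genes were detected on all 72 h arrays and 141 on none. Of the 83 genes that went dark, 49 were still detected on all 72 h arrays and 5 on none. Among them were Ppara, the receptor that drives fatty acid oxidation, with 6.57, 6.22 and 6.46 against 9.69, 9.72 and 9.42 in MCM (at least 7.50-fold lower, adjusted p = 3.59e-07), and Hdac11, a histone deacetylase, with 6.60, 6.62 and 6.63 against 8.50, 8.61 and 8.39 (at least 3.47-fold lower). Tet1, which oxidises methylated cytosine, was at least 3.19-fold lower and Ucp3, a mitochondrial uncoupling protein, at least 2.98-fold lower, with MCM values of 8.41, 7.30 and 9.13. Per3, of the circadian clock, was at least 3.17-fold lower than MCM but only at least 1.68-fold lower than adult wildtype, and the controls differed from each other (adjusted p = 0.0167). Against MCM, the silent potassium channel subunit Kcnv2 was at least 5.51-fold, the ligand of the Kit receptor, Kitl, at least 2.96-fold and the mitochondrial ribosomal gene Mrpl45 at least 2.93-fold lower.

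Most tested genes of the integrated stress response were higher. In this response, kinases that sense stress slow translation initiation, which favours translation of the transcription factor Atf4, and Atf4 with Cebp partners then raises genes for amino acid synthesis, transport and tRNA charging. Of 38 listed genes 27 were tested, and 20 were higher and 3 lower against MCM (median log2 change 1.45, against 0.00 over all genes), with 17 higher and 2 lower against both controls. Among 9 sensors and transcription factors 7 were higher, with a median of 0.69. Atf4 had 12.99, 12.76 and 12.70 against 11.20, 11.50 and 11.43 in MCM and 11.83 and 11.81 in adult wildtype (1.44 ± 0.13, adjusted p = 6.12e-06). Its 1 week values were above all control values. Ddit3, which encodes the pro-death partner CHOP, had 8.94 to 9.04 against 9.07 to 9.24 (-0.18 ± 0.16, adjusted p = 0.373). Among 6 enzymes of serine, glycine and one-carbon metabolism 5 were higher and 1 lower, with Psat1, of serine synthesis, at 1.87 ± 0.25 (adjusted p = 9.06e-05), Phgdh, its first enzyme, at least 1.73-fold higher from below detection in MCM, and Shmt2 lower by -0.39 (adjusted p = 0.0377), a call lost without any 1 array of either group except 1 week replicate 1. Asparagine synthetase, Asns, had 11.17, 11.19 and 11.30 against 7.88, 7.60 and 7.59 in MCM and 8.14 and 8.20 in adult wildtype (3.53 ± 0.19, adjusted p = 2.08e-07). The amino acid carriers Slc3a2 and Slc7a11 were dark in both controls and at least 2.73-fold and at least 1.55-fold higher. With no filter on dim probes another probe stood for Slc7a11, which was then not called (-0.0118). The gene for glutathione-degrading Chac1 had 10.95, 10.83 and 10.46 against 8.36, 8.30 and 7.68 in MCM and 9.26 and 9.42 in adult wildtype (2.63 ± 0.20, adjusted p = 2.72e-06). Fgf21, a stress hormone, was at least 1.66-fold higher. The targets Stc2 and Vldlr were lower, Stc2 by -0.87 ± 0.23 (adjusted p = 0.00823) and Vldlr by -0.76 ± 0.13, whose 4 other probes ranged from -1.03 to 3.63.

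Aminoacyl-tRNA synthetases charge tRNAs for the cytosolic or the mitochondrial ribosome. Against MCM, the calls of the cytosolic and mitochondrial sets went in opposite directions. Of 17 cytosolic enzymes tested, 9 were higher and none lower against MCM (median 0.32). Against adult wildtype 4 were higher, a share near the 24.5% over all genes, and 1 was lower. Of 12 mitochondrial enzymes none was higher and 7 were lower against MCM (median -0.45), and again none and 7 against adult wildtype. Sars, the seryl-tRNA synthetase, had 9.34, 9.17 and 9.89 against 7.83, 8.52 and 8.32 in MCM (1.24 ± 0.21, adjusted p = 0.000440). Gars, for glycine, had 13.54, 13.57 and 13.80 against 12.81, 12.74 and 12.68 in MCM and 12.91 and 12.92 in adult wildtype (0.90 ± 0.12, adjusted p = 8.03e-05). Aars, for alanine, had 11.68, 11.79 and 11.64 against 10.94, 10.97 and 10.89 in MCM and 11.03 and 11.14 in adult wildtype (0.77 ± 0.12, adjusted p = 0.000311). All 3 lay above all control arrays. Their mitochondrial counterparts included Cars2, for cysteine, with 9.62, 9.57 and 9.32 against 10.41, 10.28 and 10.18 (-0.79 ± 0.15, adjusted p = 0.000813). Sars2, for serine, had 7.21, 6.74 and 7.40 against 8.29, 8.56 and 8.03 in MCM, but 7.40 and 7.36 in adult wildtype (-1.18 ± 0.21 against MCM, adjusted p = 0.000701, and -0.26, adjusted p = 0.385, against adult wildtype). Cars, the cytosolic cysteine enzyme, was likewise called against MCM and not against adult wildtype (adjusted p = 0.182). With MCM replicate 3 as the only MCM array, the counts were 5 higher and 3 lower.

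Promoters of these genes were searched for the composite site of Cebp and Atf factors, spelled TGATGNAA and read on both strands within the 250 bases before the transcription start that RefSeq gives for GRCm38.p6. The stretches below belong to called genes of both lists and show the site in capitals, on the strand of the gene. No other motif was searched.
Asns, chr6:7693210-7693459, minus strand: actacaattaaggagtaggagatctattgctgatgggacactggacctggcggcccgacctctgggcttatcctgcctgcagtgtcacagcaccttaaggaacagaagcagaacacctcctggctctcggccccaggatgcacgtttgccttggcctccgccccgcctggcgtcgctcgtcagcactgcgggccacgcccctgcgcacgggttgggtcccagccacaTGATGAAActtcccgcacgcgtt
Chac1, chr2:119350992-119351241, plus strand: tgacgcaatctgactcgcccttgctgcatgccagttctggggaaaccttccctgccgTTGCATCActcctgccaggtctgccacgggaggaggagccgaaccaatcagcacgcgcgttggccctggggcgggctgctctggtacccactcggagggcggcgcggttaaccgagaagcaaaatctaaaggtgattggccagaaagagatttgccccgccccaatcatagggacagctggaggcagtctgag
Gars, chr6:55037751-55038000, plus strand: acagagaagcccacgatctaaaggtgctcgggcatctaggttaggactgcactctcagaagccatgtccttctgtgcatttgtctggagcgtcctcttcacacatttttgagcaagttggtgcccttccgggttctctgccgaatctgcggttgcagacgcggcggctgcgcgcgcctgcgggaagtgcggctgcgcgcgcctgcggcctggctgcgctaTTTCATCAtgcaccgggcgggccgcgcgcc
Aars, chr8:111033592-111033841, plus strand: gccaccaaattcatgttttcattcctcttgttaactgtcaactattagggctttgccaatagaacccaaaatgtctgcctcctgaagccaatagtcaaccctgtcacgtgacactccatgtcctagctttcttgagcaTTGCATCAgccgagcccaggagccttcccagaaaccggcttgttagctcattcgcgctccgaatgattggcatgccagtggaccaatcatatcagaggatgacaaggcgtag
The site began 23 bases before the start of Asns, 193 before Chac1, 30 before Gars and 112 before Aars. It was present in 6 of 25 matched stress response genes (24.0%: Nupr1, Asns, Slc7a11, Fgf21, Chac1 and Vldlr), in 3 of 11 matched cytosolic synthetases (27.3%: Aars, Gars and Tars) and in 0 of 11 mitochondrial ones. The share was 2.42% over 8211 tested genes with a promoter and 3.91% over all 27025 genes with a promoter. Of these 9 genes Tars was not called (0.32) and Vldlr was lower. A match describes the letters only.

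Chaperones, proteasome subunits and lysosomal genes rose in many members, while the ubiquitin ligases of muscle atrophy fell. Of 24 chaperones tested 14 were higher and 2 lower (median 0.60). The higher ones were 6 of 11 listed as cytosolic, a set that includes the mitochondrial Hspd1, and 8 of 13 of the endoplasmic reticulum. Hspa1a, an inducible heat shock protein, had 11.39, 11.36 and 11.02 against 6.60, 6.17 and 6.21 in MCM, where it was dark, and 8.03 and 7.70 in adult wildtype (at least 21.2-fold higher than MCM, adjusted p = 2.88e-08). Hspa5, the main chaperone of the endoplasmic reticulum, had 9.33, 9.46 and 9.79 against 8.05, 8.30 and 8.75 in MCM (1.16 ± 0.18, adjusted p = 0.000293), and Xbp1, a transcription factor of the unfolded protein response, 12.90, 12.83 and 12.91 against 11.63, 11.48 and 11.57 (1.32 ± 0.15, adjusted p = 3.21e-05). The mitochondrial chaperonin Hspd1 was lower than MCM by -0.54 (adjusted p = 0.00412) and did not pass against adult wildtype (adjusted p = 0.312). Of 27 subunits of the standard proteasome 18 were higher and 1, Psmb1, lower (median 0.38). Psmd4, a ubiquitin receptor of its cap, had 13.90, 13.94 and 14.02 against 12.70, 12.81 and 12.55 in MCM and 12.43 and 12.71 in adult wildtype (1.26 ± 0.11, adjusted p = 4.55e-06). Of the 5 immunoproteasome genes none was higher and 2 were lower. Psme1, the alpha subunit of the interferon-induced activator, had 11.66, 11.84 and 11.51 against 12.81 to 12.84 in MCM and 12.78 and 12.83 in adult wildtype (-1.16 ± 0.11, adjusted p = 1.02e-05), and Psme2, its beta subunit, fell by 0.58. Among 17 autophagy and lysosome genes 10 were higher and 2 lower, with the receptor Sqstm1 at 1.22 ± 0.13 (adjusted p = 2.50e-05) and the cathepsin Ctsz at 2.01 ± 0.22 (adjusted p = 2.41e-05). Of 8 genes of muscle protein breakdown 6 were lower and 1 higher (median -0.57). Trim63, the ligase MuRF1, had 9.41, 9.38 and 9.49 against 10.45, 10.67 and 10.31 in MCM and 10.35 and 9.68 in adult wildtype (-1.05 ± 0.19, adjusted p = 0.000781). Fbxo32, atrogin-1, fell by 0.82 (adjusted p = 8.64e-05), and its other probes by 1.87 and 0.84.

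Targets of the oxidative stress factor NRF2 rose in 8 of 11 tested genes with none lower, the same count against adult wildtype (median 1.61). Gsta1, a glutathione transferase, was dark in both controls and at least 9.29-fold higher (adjusted p = 9.94e-07). Srxn1, which repairs oxidised peroxiredoxins, had 10.76, 10.83 and 10.83 against 8.78, 8.58 and 8.82 in MCM and 9.21 and 9.35 in adult wildtype (2.08 ± 0.13, adjusted p = 5.09e-07). Ftl1, the light chain of the iron store ferritin, had 13.77, 13.85 and 13.88 against 11.87, 11.95 and 11.62 in MCM (2.02 ± 0.18, adjusted p = 7.84e-06). Nqo1, a quinone reductase often used to report NRF2 activity, lay 0.27 ± 0.12 above MCM (adjusted p = 0.0780). An 11-gene iron and heme list had 4 higher and 4 lower, each a share near that of all genes. The transferrin receptor Tfrc had 10.91, 10.89 and 10.78 against 12.42, 12.20 and 12.73 in MCM and 12.22 and 12.27 in adult wildtype (-1.59 ± 0.12, adjusted p = 2.47e-06). Steap3, the endosomal iron reductase, changed by -1.36 ± 0.21 and Alas1, the first heme synthesis enzyme outside red cells, by -1.11 ± 0.13 (adjusted p = 4.01e-05). The heavy ferritin chain Fth1 lay at 15.94 to 16.01 at 1 week, near the top of the scale, where a difference may not show.

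Genes that program and build mitochondria were lower. Among 11 nuclear receptors and coactivators of energy metabolism 9 were lower and 1, Rxra, was called higher while dark at 1 week and in MCM (median -1.02), and against adult wildtype 10 were lower and none higher. Ppargc1b, a coactivator of mitochondrial biogenesis, had 9.91, 10.06 and 9.98 against 12.24, 12.14 and 12.53 in MCM and a mean of 12.04 in adult wildtype (-2.32 ± 0.14, adjusted p = 4.35e-07). Esrra, the receptor through which it acts on respiratory genes, had 11.13, 11.12 and 11.36 against 12.18, 12.31 and 12.18 in MCM (-1.02 ± 0.11, adjusted p = 1.98e-05), and Rxrg, a heterodimer partner, fell by 1.38. Ppard, the other abundant PPAR of heart muscle, was at 10.78, 10.99 and 10.84 against 10.90, 11.16 and 10.83 (-0.09 ± 0.11, adjusted p = 0.493). Of 17 mitochondrial carrier and dynamics genes 13 were lower and none higher (median -0.57). They included Tfam, which packages mitochondrial DNA (-0.74 ± 0.13, adjusted p = 0.000637), Slc25a12, the aspartate-glutamate carrier (-0.89 ± 0.17, adjusted p = 0.000858), and Opa1, of inner membrane fusion (-1.19 ± 0.23, with other probes at -0.61 and 0.29). Breakdown of branched-chain amino acids had 10 of 14 genes lower and 1, Auh, higher (median -0.85). Dbt, the core of the branched-chain ketoacid dehydrogenase, had 10.13, 10.05 and 9.88 against 11.22, 11.22 and 11.21 in MCM and 11.30 and 11.10 in adult wildtype (-1.20 ± 0.13, adjusted p = 2.84e-05), and Mccc2, of leucine breakdown, fell by 1.36 (adjusted p = 0.000692). Oxct1, with which the heart uses ketone bodies, fell by 0.81 (adjusted p = 0.000166).

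Ribosomal protein genes divided by compartment as the synthetases did against MCM. Of 29 tested proteins of the mitochondrial ribosome 22 were lower and 1, Mrpl20, higher (median -0.57), and against adult wildtype 19 were lower and 1 higher. Mrps35 had 10.84, 11.01 and 10.79 against 12.05, 12.19 and 12.23 in MCM and a mean of 11.98 in adult wildtype (-1.28 ± 0.17, adjusted p = 9.85e-05), with no overlap. Of 20 tested proteins of the cytosolic ribosome 14 were higher and none lower (median 0.29), and 13 were higher and 1 lower against adult wildtype. Rpl3 had 14.69, 14.53 and 14.63 against 13.99, 14.02 and 13.72 in MCM and 14.06 and 13.93 in adult wildtype (0.71 ± 0.20, adjusted p = 0.0107). The cytosolic count was 7 without MCM replicate 1, 9 without MCM replicate 3, 8 without 1 week replicate 2 and 6 by median scaling. Ribosome biogenesis went both ways, 9 of 20 higher and 4 lower (median 0.17). Bop1 and Pes1 encode partners in 1 complex for large subunit assembly. Bop1 had 8.88, 8.93 and 9.16 against 7.74, 7.87 and 7.77 in MCM (1.19 ± 0.21, adjusted p = 0.000663), and Pes1 had 8.82, 8.73 and 8.39 against 9.87, 9.71 and 9.77 (-1.14 ± 0.13, adjusted p = 4.20e-05). Of 14 translation factors 7 were higher and 4 lower, with the initiation factor Eif1a at 1.58 ± 0.25 (adjusted p = 0.000291) and Eif4ebp2, a repressor of cap-dependent translation, at -1.24 ± 0.12 (adjusted p = 1.45e-05).

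**Figure D2:**
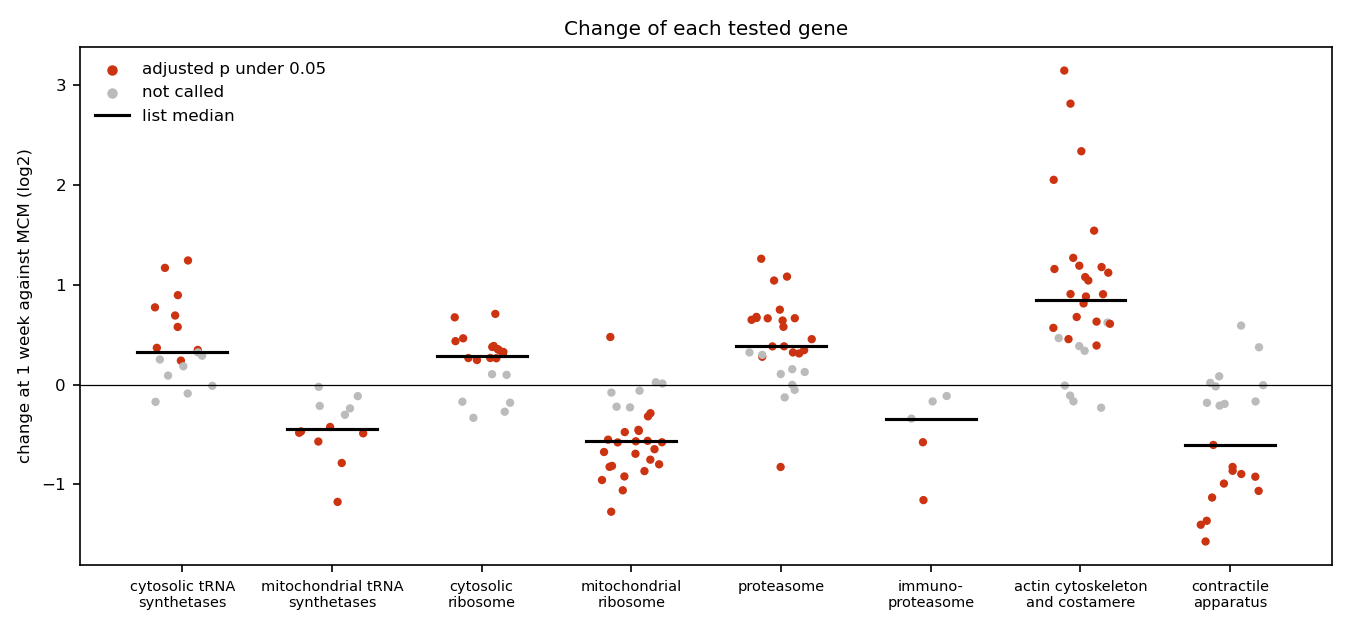
Log2 change at 1 week against MCM for each tested gene of 8 lists, with called genes in red, others in grey and a black bar at each list's median. Cytosolic synthetases (median 0.32), cytosolic ribosome (0.29), proteasome (0.38) and actin cytoskeleton (0.85) lie mostly above 0, and mitochondrial synthetases (-0.45), mitochondrial ribosome (-0.57), immunoproteasome (-0.34) and contractile apparatus (-0.61) mostly below.

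Within the structural genes, sarcomere parts were lower or did not pass, and actin remodelling and costamere genes were higher. Of 21 tested genes of the adult contractile apparatus 11 were lower and none higher (median -0.61), with the same 11 lower against adult wildtype too. Ldb3, a Z disc protein, had 11.26, 11.14 and 11.14 against 12.61, 13.08 and 12.57 in MCM and 12.56 and 12.28 in adult wildtype (-1.57 ± 0.18, adjusted p = 3.02e-05). Tcap, the titin cap, had 14.89, 14.77 and 14.96 against 15.81, 15.91 and 15.58 in MCM (-0.90 ± 0.12, adjusted p = 8.31e-05). The light chain Myl2 (15.79 to 15.95 against 15.76 to 15.83) and the troponin Tnnc1 (15.79 to 15.91 against 16.01 to 16.07) were not called and lay near the top of the scale. Of 30 actin cytoskeleton and costamere genes 22 were higher and none lower (median 0.85), and 18 were higher against adult wildtype. Capg, an actin-capping protein, had 10.16, 10.12 and 10.05 against 8.04, 8.15 and 7.99 in MCM and 8.62 and 8.64 in adult wildtype (2.05 ± 0.35, adjusted p = 0.000453). Flnc, the filamin of striated muscle, had 14.28, 14.41 and 14.44 against 13.47, 13.43 and 13.52 in MCM and 13.19 and 13.33 in adult wildtype (0.91 ± 0.19, adjusted p = 0.00206). Vim, the intermediate filament of mesenchymal cells and leukocytes, was at 1.54 ± 0.28, and Itga5, the fibronectin receptor, at 1.19 ± 0.22 (adjusted p = 0.000868). With MCM replicate 3 as the only MCM array 7 of the 22 were called. Of 7 intercalated disc genes 4 were lower and none higher. The gap junction gene Gja1 had 13.58, 13.79 and 13.69 against 14.60, 14.23 and 14.97 in MCM and 14.80 and 14.96 in adult wildtype (-0.91 ± 0.16, adjusted p = 0.000506).

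Genes of excitation were lower in most tested members, and none of 15 potassium channel genes or 18 calcium cycling genes was higher against MCM. Of the potassium channel genes 14 were lower (median -1.45), and 13 were lower against both controls. Kcnj12, of the inward rectifier current that sets the resting potential, had 7.21, 6.95 and 7.21 against 9.10, 9.21 and 8.82 in MCM and 8.63 and 8.75 in adult wildtype (-1.92 ± 0.17, adjusted p = 5.37e-06). Kcnd2, the pore of the transient outward current, had 8.79, 9.07 and 8.84 against 10.62, 10.57 and 10.94 in MCM (-1.81 ± 0.28, adjusted p = 0.000277), which places it beside its partner Kcnip2 described above. Kcnh2, of a repolarising current, fell by 0.67 (adjusted p = 0.000634). In calcium cycling 13 of 18 were lower (median -0.74). The L-type channel pore Cacna1c was dark at 1 week, at 6.40 to 6.54, and had 7.31, 7.23 and 7.33 in MCM (adjusted p = 0.000421), and the kinase subunit gene Phkg1 changed by -1.19 ± 0.25 (adjusted p = 0.00214). Atp2a2, the calcium pump of the sarcoplasmic reticulum, had 15.71 to 15.76 against 15.69 to 15.90 and was not called (-0.03 ± 0.10, adjusted p = 0.848), and its other probes lay at -0.50 and -0.45. Of 8 sodium, chloride and pacemaker channel genes 4 were lower and 1 higher, with Scn4b, a sodium channel subunit, at -1.27 ± 0.27 (adjusted p = 0.00201). Agtr1a, the angiotensin receptor, fell by 1.13 (adjusted p = 0.000307) in a list of 12 hormone and transmitter receptors with 5 lower and 3 higher.

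Cardiac transcription factors were lower in 12 of 16 tested genes and higher in none (median -0.76), and in 8 against adult wildtype. Irx4, a ventricular homeobox factor, had 7.64, 7.57 and 7.63 against 9.46, 9.36 and 9.62 in MCM and 9.31 and 9.20 in adult wildtype (-1.87 ± 0.11, adjusted p = 3.44e-07). Irx3, which shapes ventricular conduction, had 11.02, 11.08 and 10.97 against 12.11, 12.24 and 11.90 in MCM and 11.52 and 11.74 in adult wildtype (-1.06 ± 0.10, adjusted p = 9.78e-06). Tbx20 fell by 2.02 by its brightest probe and by 0.14 by the other. Myocd, the coactivator of serum response factor, fell by 1.14 (adjusted p = 9.78e-06), with 4 other probes from -1.17 to -0.69. Nkx2-5 was lower than MCM by -0.38 (adjusted p = 0.00536) and lay at 0.02 against adult wildtype (adjusted p = 0.866). Gata4 (-0.59, adjusted p = 0.0708) and Srf (0.20, adjusted p = 0.0791) were not called. Gata4 was called without 1 week replicate 2 or MCM replicate 2 (-0.75 in both cases), and Srf without MCM replicate 3 (0.27).

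RNA-binding proteins linked to DM1 were mixed, 5 higher and 6 lower of 18 tested (median -0.15), shares close to those of all genes. The muscleblind and CELF genes did not pass. Their log2 changes were -0.12 ± 0.12 for Mbnl1, -0.21 ± 0.10 for Mbnl2, -0.07 ± 0.08 for Celf1 and 0.14 ± 0.11 for Celf2 (adjusted p = 0.440, 0.108, 0.521 and 0.301). Mbnl2 was called at -0.33 without 1 week replicate 2, whose 13.23 stood above 12.92 and 12.80. Ptbp1, a splicing repressor low in mature muscle, had 11.26, 11.35 and 11.15 against 10.34, 10.40 and 10.19 in MCM and 10.21 and 10.18 in adult wildtype (0.94 ± 0.15, adjusted p = 0.000359), with 9 other probes from 0.05 to 1.08. Rbm24, a muscle splicing factor, had 8.35, 8.28 and 7.96 against 9.85, 9.56 and 9.10 in MCM and 9.15 and 8.62 in adult wildtype (-1.31 ± 0.20, adjusted p = 0.000221). Qk, the quaking splicing factor, fell by 0.83 (adjusted p = 0.00228). Mef2c, a muscle transcription factor, had 10.78 to 11.01 against 11.49, 11.40 and 11.83 in MCM (-0.64 ± 0.11, adjusted p = 0.000625), and its 3 other probes fell further, by 1.25 to 1.92.

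Matrix genes rose broadly, though not all of them. Of 40 tested genes 30 were higher and none lower against MCM (median 1.42), and 24 were higher against both controls. Among 14 proteases, inhibitors and crosslinkers 11 were higher against MCM, among 13 glycoproteins and proteoglycans 9, and among 13 collagens 10. Against adult wildtype these counts were 11, 9 and 6, with 1 collagen lower. Adamts4, an aggrecanase, was dark in MCM and at least 5.43-fold higher (adjusted p = 6.94e-05), and Tnc, tenascin C of wounds, at least 12.5-fold higher (adjusted p = 0.00221), with other probes at 1.03 and 4.68. Fn1, fibronectin, had 11.41, 11.59 and 11.28 against 8.38, 8.45 and 8.20 in MCM and 8.56 and 8.86 in adult wildtype (3.08 ± 0.49, adjusted p = 0.000292), and its 3 other probes ranged from 0.10 to 1.89. Col3a1, a fibrillar collagen, had 10.57, 11.14 and 10.79 against 9.16, 9.56 and 9.45 in MCM (1.44 ± 0.42, adjusted p = 0.0115). Col4a1, of basement membrane, was higher than MCM (1.09 ± 0.26, adjusted p = 0.00433) and not than adult wildtype, at 13.34 to 13.55 against 13.44 and 13.55. The small proteoglycans Dcn (14.70 to 14.92 against 14.54 to 14.87) and Lum (11.85 to 11.96 against 11.79 to 12.17), which resident fibroblasts make, were not called. With MCM replicate 3 as the only MCM array 19 of the matrix genes were higher. In the TGF-beta pathway 4 of 12 were higher and 1 lower. Tgfb2, a ligand, had 10.01, 9.86 and 9.74 against 8.56, 8.48 and 8.55 in MCM (1.34 ± 0.30, adjusted p = 0.00267), and Tgfb1 was not called (0.01 ± 0.12, adjusted p = 0.942).

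Genes of the interleukin 6 family pathway, in which cytokines signal through the shared receptor gp130 to Stat3, were higher in 12 of 14 tested members and lower in 1 (median 0.98), and 10 were higher against both controls. Among ligands and receptors, the ligand Osm was dark in MCM and at least 1.04-fold higher, and its receptor Osmr had 10.18, 10.68 and 10.52 against 9.42, 9.33 and 9.22 in MCM (1.14 ± 0.33, adjusted p = 0.0115). Il6st, which encodes gp130, was higher by 0.64 (adjusted p = 0.00183), and Lifr, the receptor for a related cytokine, was lower by -0.47 (adjusted p = 0.0262), a call lost without MCM replicate 1 (-0.40), MCM replicate 3 (-0.45) or 1 week replicate 2 (-0.41). Among targets, Socs3, the feedback inhibitor, had 10.53, 10.91 and 10.56 against 7.55, 7.97 and 7.48 in MCM and 8.03 and 8.16 in adult wildtype (3.00 ± 0.53, adjusted p = 0.000636). Saa3, an acute phase protein, was at least 4.78-fold higher (adjusted p = 9.42e-05). Chemokines were higher in 10 of 15 and lower in 2 (median 0.81), and 5 were higher with MCM replicate 3 as the only MCM array. Ccl6, a macrophage chemokine, had 10.51, 10.72 and 10.33 against 7.44, 7.70 and 7.04 in MCM (3.13 ± 0.43, adjusted p = 0.000120), while Cxcl12, which retains progenitors in tissue, fell by 0.92 (adjusted p = 0.000200).

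Among markers of other cell types, those of macrophages and neutrophils were mostly higher. All 16 tested macrophage and monocyte markers were higher against MCM and 15 against adult wildtype (median 1.41). Their summed linear signal, in units of 1000, was 40.1 to 45.4 at 1 week, 9.54 to 10.7 in MCM and 10.1 to 10.2 in adult wildtype, and Ctss and Fcer1g were dark in both controls. Log2 changes were 4.86 ± 0.57 for Lgals3, a galectin that other stressed cells also make, and 4.10 ± 0.32 for Cd14, a receptor for bacterial lipopolysaccharide. They were 0.87 ± 0.16 for the lineage receptor Csf1r (adjusted p = 0.000708), 1.05 for Adgre1 and 0.66 ± 0.22 for the mannose receptor Mrc1 (adjusted p = 0.0216), whose call was lost without 1 week replicate 2 or MCM replicate 1 or 2 (0.54 to 0.65). Neutrophil markers were higher in 3 of 4 tested, with Retnlg at 9.92, 10.31 and 9.61 against 6.86, 7.24 and 6.40. Of 13 listed lymphocyte markers only Cd3e, Cd3d, Cd3g and Nkg7, of T and natural killer cells, were tested, and all 4 were dark on every 1 week and control array. On the same scale, markers of heart muscle cells summed to 342 to 352 against 442 to 457 in MCM and 434 to 442 in adult wildtype, with 6 of 11 lower. Fibroblast markers were higher in 4 of 10 and lower in 1 (median 0.17, and -0.0014 against adult wildtype), with sums of 46.9 to 51.8 against 36.4 to 46.9. Mfap5, a microfibril protein of that list, had 11.76, 11.78 and 11.77 against 9.50, 9.48 and 9.30, while Tcf21, a factor of resident fibroblasts, had 8.91 to 9.42 against 9.06 to 9.63. Endothelial markers were 3 higher and 4 lower of 12, near the shares of all genes, with sums of 37.7 to 41.2 against 34.7 to 37.3 in MCM. The tight junction gene Cldn5 was at 1.83 ± 0.12 and the receptor Tek at -0.49 ± 0.13. Smooth muscle and pericyte markers were 1 higher and 5 lower of 10, while their sum was higher, at 50.5 to 58.9 against 27.4 to 45.2 in MCM and 24.5 to 25.3 in adult wildtype. Acta2 rose by 1.26 ± 0.21, while Smtn and Myh11, markers of contractile smooth muscle, fell by 1.59 and 1.25. Atrial markers were lower in 3 of 9 and higher in none, and their sums of 91.5 to 104 lay inside the MCM range of 23.5 to 146. The atrial count was 2 without 1 week replicate 1 or 3 or MCM replicate 1 or 2. In whole hearts, fewer cells of a type and less RNA per cell cannot be told apart, nor can more cells and more RNA per cell. The part of cell composition in any single gene's change was not tested.

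Genes of growth arrest and p53 were higher in 8 of 13 and lower in 1 (median 0.98). Cdkn1a, a cell cycle inhibitor, had 12.33, 12.81 and 12.35 against 9.27, 9.77 and 8.66 in MCM and 10.57 and 10.44 in adult wildtype (3.26 ± 0.43, adjusted p = 9.08e-05), and Gadd45g, a stress sensor, had 12.49, 12.58 and 12.30 against 10.75, 10.74 and 10.71 (1.72 ± 0.31, adjusted p = 0.000756). Ccng1, another p53 target, fell by 0.87 (adjusted p = 0.000320). Of 14 cell death genes 8 were higher and 1 lower, and 5 were higher without 1 week replicate 1 or 2. Tnfrsf12a, the TWEAK receptor, had 12.73, 12.65 and 12.72 against 10.34, 10.44 and 10.36 in MCM and 10.08 and 9.83 in adult wildtype (2.32 ± 0.41, adjusted p = 0.000642). Bcl2l11, a pro-apoptotic protein, fell by 1.28 (adjusted p = 0.00106). Cell cycle genes were higher in 9 of 25 and lower in 2, and in 16 when only the 1 week and MCM arrays were fitted. Birc5, of chromosome segregation, was at least 2.89-fold higher from below detection, and Ccnd2, a cyclin of G1 phase, fell by 1.12 (adjusted p = 1.12e-05). Interferon response genes were 6 higher and 2 lower of 13, with 3 higher without MCM replicate 3 or 1 week replicate 2 and 4 without any of the other arrays except MCM replicate 2, and Irf1, an interferon regulator, was lower by -0.47 (adjusted p = 0.00266).

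Genes for fuel handling outside mitochondria were lower more often than higher. Glycogen and sugar handling had 3 genes higher and 11 lower of 20 tested (median -0.46). The glucose transporter Slc2a1, the widely expressed form, had 10.42, 10.51 and 10.40 against 9.36, 9.48 and 9.12 in MCM and 8.91 and 8.84 in adult wildtype (1.12 ± 0.17, adjusted p = 0.000248). Slc2a4, the insulin-regulated form of muscle, had 11.62, 11.70 and 11.63 against 12.80, 12.71 and 12.47 in MCM and 12.07 and 12.13 in adult wildtype (-1.01 ± 0.19, adjusted p = 0.000804, and adjusted p = 0.0917 against adult wildtype). Among 13 genes of creatine, purine and phosphate transfer 7 were lower and 2 higher, with muscle creatine kinase Ckm at 13.45, 13.34 and 13.13 against 14.67, 14.76 and 14.54 (-1.35 ± 0.14, adjusted p = 1.80e-05). Fatty acid uptake and storage had 6 of 12 lower and 3 higher. Plin2, a lipid droplet protein of many tissues, was higher by 1.17 ± 0.18 (adjusted p = 0.000217) and Plin5, the one of oxidative muscle, fell by 1.32 ± 0.18 (adjusted p = 0.000102). All 7 tested genes of cholesterol synthesis and export were higher against MCM, 1 of them while dark at 1 week and in MCM. Against adult wildtype 4 were higher. The count against MCM was only 3 without MCM replicate 1, and 4 without MCM replicate 3 or without any 1 week array. Smaller lists were mixed. Complement and coagulation had 6 higher and 2 lower of 8, hypertrophy and fetal genes 6 higher and 1 lower of 17, polymerase II and export 3 higher and 2 lower of 7, and polyamine and arginine metabolism 3 higher and 1 lower of 6. Arg1, an arginine-degrading enzyme of macrophages and liver, was at least 18.4-fold higher (adjusted p = 1.10e-06).

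**Figure D3:**
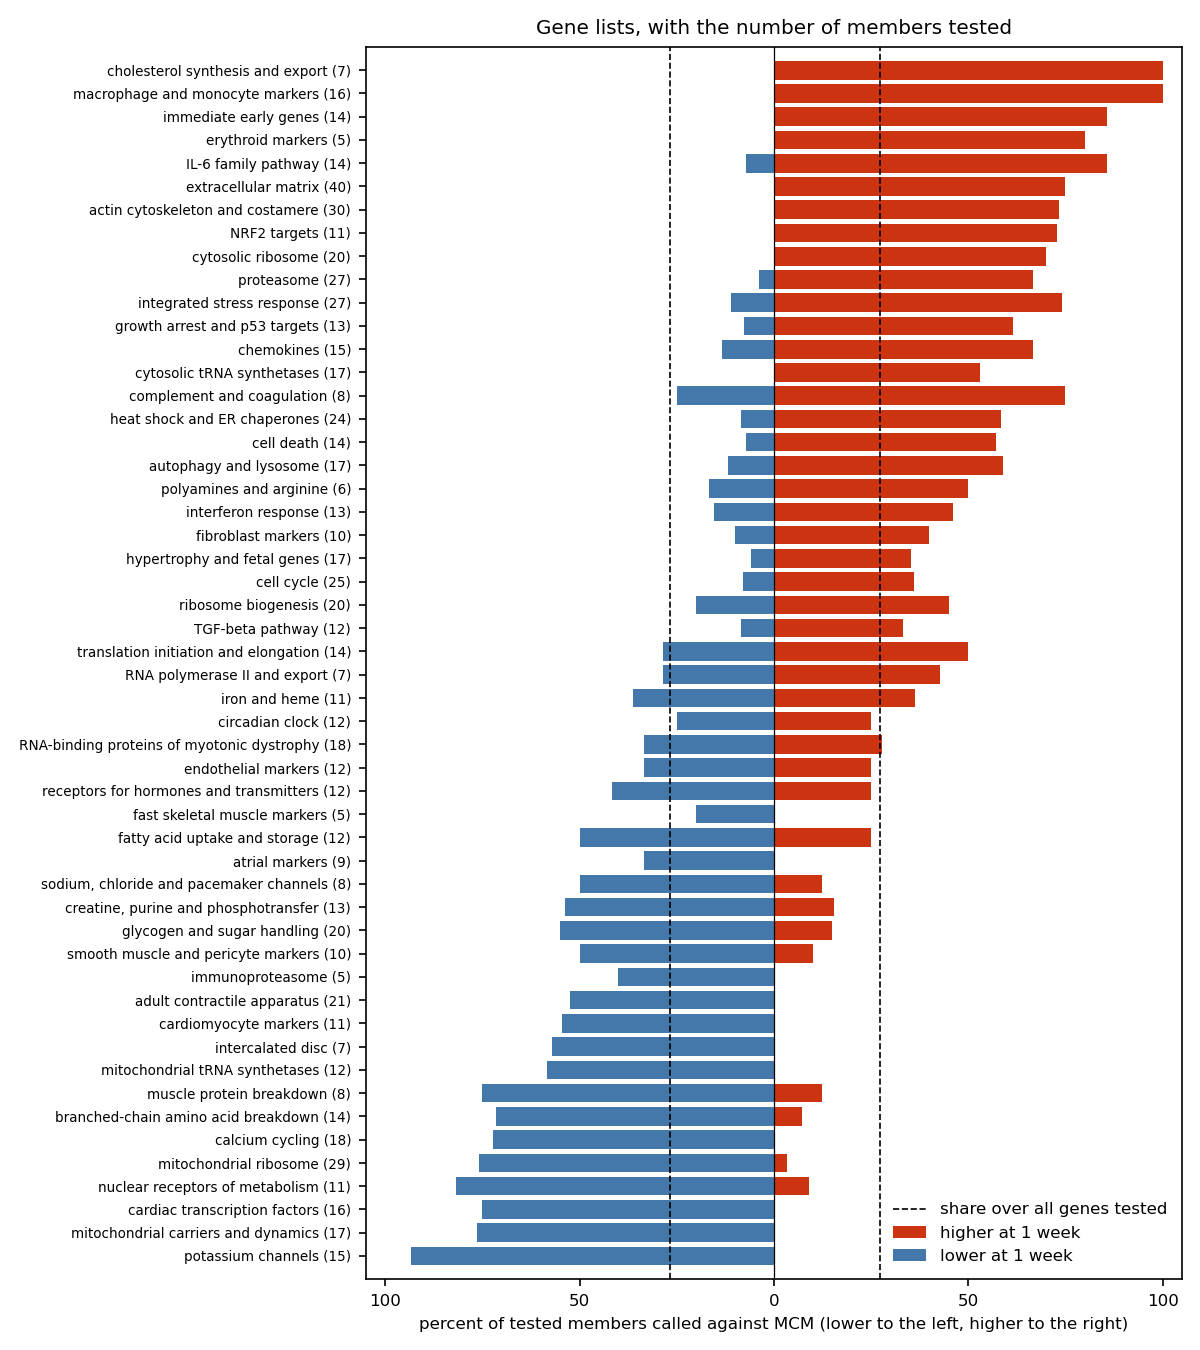
Percent of the tested members of each list with at least 5 tested genes that were higher (red, to the right) or lower (blue, to the left) at 1 week against MCM, with the number tested in parentheses and dashed lines at the shares over all genes, 27.2% and 26.6%. Macrophage markers (16 of 16 higher) and potassium channels (14 of 15 lower) lie near the ends of the plot.

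Some calls were made against 1 control and not the other. Against MCM, 718 of the genes higher at 1 week were not called against adult wildtype and 18 were called lower there, and 696 of the lower genes were not called and 31 were called higher. A missing call does not show that the controls differ, since adult wildtype has 2 arrays and MCM 3. The controls differed from each other in 582 genes. Immediate early genes were higher in 12 of 14 against MCM (median 1.27) and in 7, with 1 lower, against adult wildtype (median 0.51). Fos had 9.94, 10.65 and 10.08 at 1 week, 7.74, 8.51 and 7.46 in MCM and 10.10 and 9.80 in adult wildtype, so it differed from MCM (2.32 ± 0.49, adjusted p = 0.00199) and not from adult wildtype (0.27, adjusted p = 0.709). Egr1 gave the same pair of calls, at 2.03 ± 0.25 and 0.40 (adjusted p = 5.61e-05 and 0.257), whereas Junb differed from both (1.96 ± 0.26, adjusted p = 8.70e-05, and 1.03, adjusted p = 0.0116). In the circadian clock list 3 genes were higher and 3 lower of 12 against MCM, and none was higher and 2 lower against both controls. Arntl, the central activator of the clock, had 8.43, 8.61 and 8.66 at 1 week and 8.21 and 8.26 in adult wildtype, but was dark in MCM at 5.62, 5.31 and 5.85. It was at least 3.28-fold higher than MCM (adjusted p = 3.44e-07) and did not pass against adult wildtype (0.34, adjusted p = 0.175). Dbp, a clock output factor, was 12.01 to 12.21 at 1 week, 12.64 and 12.68 in adult wildtype and 13.39 to 13.97 in MCM, and was lower against both (-1.54 ± 0.13, adjusted p = 5.23e-06, and -0.57, adjusted p = 0.00778). The count of higher clock genes was 2 without MCM replicate 3 or without any 1 of the 1 week arrays. No label gives the hour of day at which hearts were taken, and its part was not tested.

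Erythroid markers were higher in 4 of 5 against MCM and in none against adult wildtype. Their summed signal, in units of 1000, was 110 to 118 at 1 week, 48.8 to 73.1 in MCM and 128 to 136 in adult wildtype, so the MCM hearts stood apart. Alas2, the heme synthesis enzyme of red cells, had 11.60, 11.55 and 11.74 at 1 week, 8.61, 9.11 and 8.20 in MCM and 10.95 and 10.71 in adult wildtype (2.99 ± 0.29, adjusted p = 1.20e-05 against MCM, and 0.80, adjusted p = 0.0583, against adult wildtype). Nppb, the natriuretic peptide of strained ventricles, had 15.58, 15.57 and 15.61 at 1 week against 13.43, 13.50 and 13.51 in MCM (2.11 ± 0.44, adjusted p = 0.00175) and 14.77 and 14.57 in adult wildtype (0.92, adjusted p = 0.141). All of its 1 week values exceeded all control values, and the controls were not called as different from each other (adjusted p = 0.201). Nppa, its atrial relative, was at 15.98 to 16.01 at 1 week, near the top of the scale, and was not called (0.55 ± 0.44, adjusted p = 0.318). Its MCM values were 16.04, 16.07 and 14.23, and with replicate 3 alone it was called at 1.77. Myh6, the adult myosin heavy chain, had 15.00, 14.94 and 15.06 against 15.97 to 16.01 in MCM and 15.96 and 16.01 in adult wildtype, a change of -0.99 ± 0.10 (adjusted p = 1.39e-05). The control values lie near the top of the scale, where the size of a fall may be understated, and the other, dimmer probe of Myh6 fell by 1.21. Myh7, the fetal one, had 10.47, 10.02 and 10.15 against 9.59, 9.72 and 9.54 (0.59 ± 0.28, adjusted p = 0.0941).

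A few genes had opposite calls against the controls, which differed from each other there. Rbp7, a retinol-binding protein of endothelium and fat, had 11.54, 11.47 and 11.34 at 1 week, 12.56, 12.57 and 12.37 in MCM and 5.23 and 5.96 in adult wildtype. It was lower than MCM (-1.05 ± 0.36, adjusted p = 0.0263) and higher than adult wildtype (5.85, adjusted p = 1.10e-06), and the former call was lost without any 1 of the arrays other than MCM replicate 3. Lrrc2, a leucine-rich repeat protein of muscle, had 8.94, 8.64 and 9.09 against 11.32, 11.32 and 11.43 in MCM and a mean of 5.04 in adult wildtype. Me1, the cytosolic malic enzyme, had 7.25, 7.41 and 7.61 against 9.13, 8.83 and 9.62 in MCM and 5.28 and 5.15 in adult wildtype, and Zfp985, a zinc finger gene, followed the same order. All 4 genes were dark on both adult wildtype arrays. On the wildtype embryo array they were at 4.95 to 5.23, and on the 72 h arrays at 7.50 to 12.1. The strain label is the same for both controls, and what sets them apart was not tested.

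**Figure D4:**
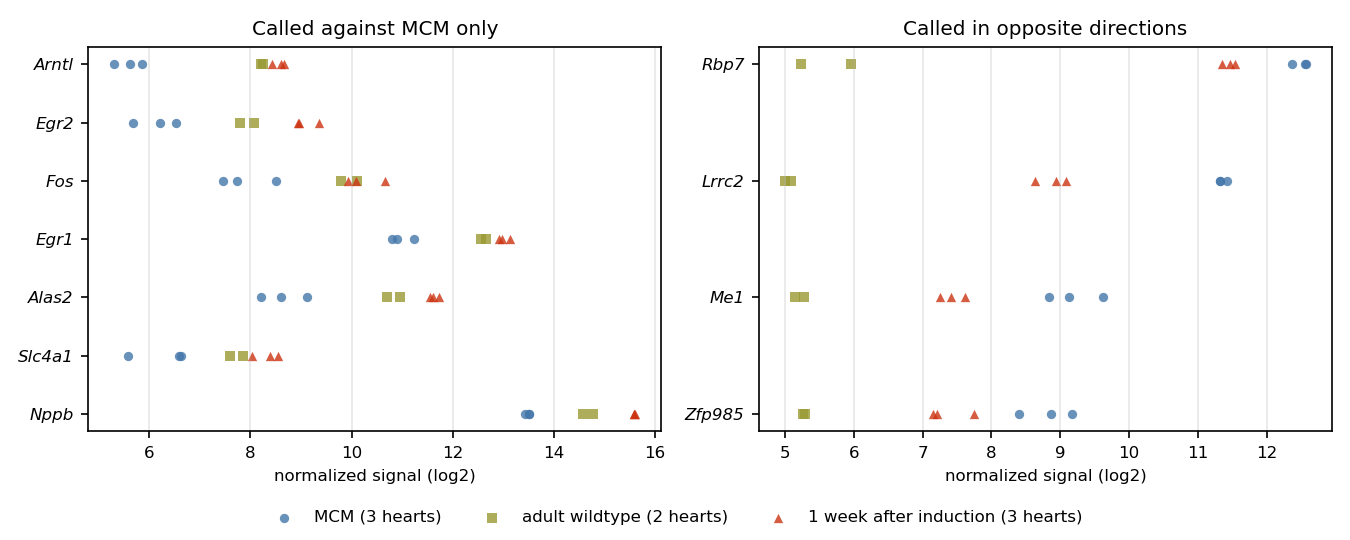
Normalized log2 signal by array for 7 genes called higher against MCM and not against adult wildtype (left) and 4 called in opposite directions (right). MCM is shown as circles, adult wildtype as squares and 1 week as triangles. For Arntl the 2 adult wildtype hearts (8.21 and 8.26) lie beside the 1 week hearts, and for Lrrc2 the 1 week hearts lie between both controls.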

How the data were processed

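RNA from whole mouse hearts was hybridised to Illumina bead arrays, 1 per sample, per the labels' protocols. Per the file headers, the deposited array files give the mean bead intensity of each probe, a detection score and a bead number, with no normalization seen. The authors' deposited table of normalized intensities, made by mapping quantiles onto a master array per the deposited program, linked probe identifiers to array files (45281 probes, all equal within 0.001) and served as an alternative. Median bead numbers were 41 to 42 per probe, and the number of arrays limits the precision. The platform annotation paired 34885 probes with 1 gene symbol, 18 with several and 10378 with none.

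Intensities were background corrected by normexp with an offset of 16, using 1 minus the score as detection p, quantile normalized over all 12 arrays and taken to log2. A probe was kept when some group had it detected on all its arrays at a detection p under 0.01, which held for 18370 probes. The named probe with the highest mean stood for each of 10169 genes. "Dark" means not detected on any array of a group. limma 3.58.1 in R 4.3.3 fitted the mean of each of the 5 groups over the 12 arrays, with intensity-trended variances and Benjamini-Hochberg adjustment. The code was tested on simulated data. Bounds on folds set the bright group's mean against the lowest detected signal of the dark arrays.

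The genes named were, against MCM, the 12 largest rises and falls called against both controls, the 8 largest bounds of appearing and of disappearing genes, up to 4 leading and 2 opposite members of each list, a fixed set around DM1 and sex, and 4 genes with opposite calls. Another 57 of the 196 genes in the text lie outside that rule and were chosen after their values were seen: Adamts4, Adgre1, Alas1, Atf4, Atp2a2, Birc5, Cacna1c, Cd3d, Cd3g, Col3a1, Col4a1, Csf1r, Dcn, Ddit3, Esrra, Fgf21, Flnc, Fn1, Fth1, Gata4, Hspa5, Il6st, Irx3, Itga5, Junb, Kcnd2, Kcnh2, Lum, Mrc1, Myh11, Myl2, Myl7, Nkg7, Nkx2-5, Nqo1, Nupr1, Osm, Osmr, Phgdh, Phkg1, Ppard, Psat1, Qk, Shmt2, Slc2a1, Slc2a4, Sqstm1, Srf, Stat3, Tars, Tcap, Tcf21, Tfam, Tgfb1, Tnnc1, Vim and Xbp1. The comparison, the gene lists and the tests were chosen with earlier results of these data known. Alternatives varied background correction, scaling, filters, probe choice, arrays fitted and replicates. The alternatives for list counts were chosen after seeing the data.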

Additional observations from a re-analysis of the deposited data

Results flagged for a closer look

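A signal was present in probes that the comparisons by gene do not use. Of 10396 probes without a single gene symbol, 88 were detected on all 3 arrays at 1 week and on none of the 5 control arrays. Of these 88 probes 1 was also detected on all 72 h arrays. In the other direction, 47 such probes were detected on all 5 control arrays and on none at 1 week. The transcripts behind these probes were not analysed here.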

How the results depend on the processing

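The count of genes changed against MCM stayed within 1.5 times its value of 5476 under all alternatives except 2. It was 3625 with MCM replicate 3 as the only MCM array, which is then assumed to vary like the other groups, and 3638 when at least a 1.5-fold change was also asked for. The count against both controls was 2668 under that fold limit. Leaving out 1 array at a time gave 4642 to 4958 genes against MCM, 3330 to 4352 against adult wildtype and 2876 to 3773 against both. Array weights gave 6633 against MCM, and probes detected on all 12 arrays gave 4128 (1937 higher and 2191 lower). With the replicate number as a block the counts were 5478, 4986 and 4041. Hearts with the same number at 1 week and in MCM did not deviate together (correlations of 0.0639, -0.0417 and -0.00816), so the numbers were not taken as pairs. Of the 196 named genes 169 were called against MCM. Of these, 149 kept the call under each of the 21 alternatives in which they were tested. Genes dark on some arrays were not tested where the filter asked for detection on all 12. Another 20 lost the call or turned sign in at least 1 alternative, 9 of them losing it only with the lone MCM array. The sign turned for 4 genes. Against the mean of all 5 control hearts, Lrrc2 was at 0.0575 and Rbp7 at 1.71. Slc7a11 was at -0.0118 with no filter on dim probes, where a probe with a higher mean may stand for a gene, and Vldlr at 0.0539 by the mean of its probes. Signals below detection and near the top of the scale limit the size of a change that could be measured.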
